A study of Mus musculus with 12 samples.

Results

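B cells from mice that carried the Eμ-Myc transgene and lacked PRPS2 were compared with B cells from wild-type (WT) mice. The 8 libraries titled as Eμ-Myc; PRPS2 KO or as WT were taken from the 12 of the series, 4 for each group, by their titles alone, and every gene was examined. All 12 libraries were made from polyadenylated RNA of B lymphocytes isolated from spleens at 6 weeks of age. The WT mice are described as C57BL/J6, and the knockout group differed from them by both the transgene and the loss of PRPS2, so the effects of these alterations cannot be told apart in this comparison. The other 4 libraries, from Eμ-Myc mice with PRPS2, are used for levels beside those of named genes and for a direct comparison at the end. They also enter the reference for scaling, the measures of spread between libraries and an alternative fit of all 12 libraries. Sex, genetic background of the transgenic mice, the method of B-cell isolation, the deleted part of the gene and whether any mouse already had a tumour are not given in the sources used here. Titles number the libraries of each group as biological replicates 1 to 4.

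In the Eμ-Myc mouse, an enhancer of the immunoglobulin heavy chain locus drives Myc in B-lineage cells, whose precursors expand before lymphoma appears. MYC binds DNA with its partner MAX and raises the expression of genes for ribosome assembly, nucleotide synthesis and cell division. PRPS2 is an isoform of phosphoribosyl pyrophosphate (PRPP) synthetase, which turns ribose 5-phosphate into the sugar donor for purine, pyrimidine and nicotinamide nucleotides. PRPS1 is the isoform that is expressed most widely. The study is titled around redox balance in MYC-driven lymphoma, so the genes of redox metabolism are described here with those of growth, the cell cycle and B-cell identity.

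Values are coverage per gene, taken here as the number of times an average base of the gene was covered, and scaled between libraries. The tool that made them is not given. Fold changes are on the scale of log2(scaled coverage + 0.5), which understates the change of low genes. A gene is called where limma gave an adjusted p under 0.05. Reads behind a value are unknown, so precision comes from the spread between libraries.

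The 4 knockout libraries were not alike, and this bears on every count that follows. Knockout libraries 3 and 4 were close to each other, with an SD of 0.110 for their log2 difference over the 3606 genes that reached 50 in all 12 libraries. Libraries 1 and 2 differed from each other by 0.189 on that measure, and from libraries 3 and 4 by 0.606 to 0.763. The closest WT pair, libraries 2 and 3, differed by 0.152. Of the 3689 called genes, 2126 were farthest from the WT mean in knockout library 3, 1482 in library 4, 62 in library 2 and 19 in library 1. The median SD of a gene on the log2 scale was 0.386 in the knockout group, 0.224 in WT and 0.215 in Eμ-Myc. Total coverage ran from 1277305.5 to 1857458.2 in WT and from 1384522.0 to 1542994.8 in the knockout group.

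T-cell, NK-cell and myeloid markers separated the same libraries, whereas platelet and erythroid markers did not. The 8 B-cell markers were above 0 in every library, and their summed scaled coverage was 8613 to 16350 in WT and 8789 to 10080 in the knockout group, so the ranges overlapped. The 13 T-cell markers summed to 1058 to 5962 in WT, to 1270 and 1465 in knockout libraries 1 and 2, and to 109 and 106 in libraries 3 and 4. The 9 NK-cell markers summed to 436 to 1695 in WT, 704 and 526 in knockout libraries 1 and 2, and 29.4 and 27.1 in libraries 3 and 4. The 16 myeloid markers summed to 10030 to 28140 in WT and to 18610, 13340, 3481 and 1847 in knockout libraries 1 to 4. Platelet markers summed to 106 to 489 in WT and to 167, 49.0, 42.3 and 50.4 in knockout libraries 1 to 4, and 5 of 6 were called lower. Erythroid markers summed to 125 to 1012 in WT and to 310, 234, 319 and 319 in the knockout group. None of the T-cell, NK-cell or myeloid markers passed the test over the 8 libraries, with 7 of 13, 3 of 9 and 0 of 16 at an unadjusted p under 0.05. Without knockout library 1, 12 T-cell, 8 NK-cell and 4 myeloid markers were called. That fit called 6787 of the 12823 genes it tested, 3026 of them lower. In bulk RNA, fewer cells of a type and less RNA per cell cannot be told apart. The part of these cells in the results below was not tested.

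**Figure D1:**
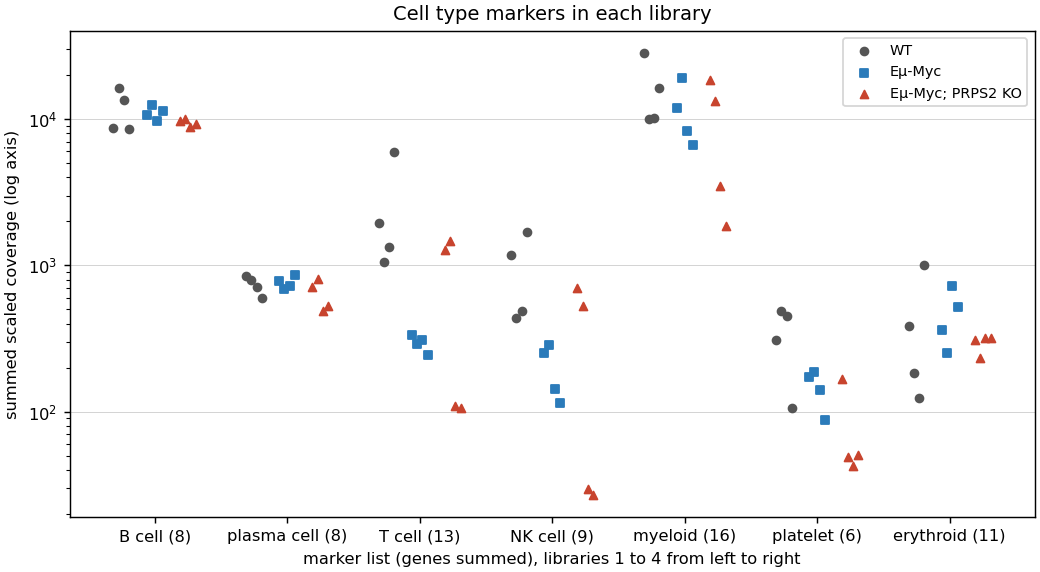
Summed scaled coverage of cell type marker lists on a log axis, with 1 point per library and the 4 libraries of each group in order from left to right. Knockout libraries 3 and 4 lie under all other libraries for the T-cell, NK-cell and myeloid lists, whereas the B-cell sums of the groups overlap.

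Prps2, the deleted gene, lies on the X chromosome (chrX:167346320-167382872, RefSeq, GRCm38.p6, the build used for all positions here). Its scaled coverage was 96.2, 142, 124 and 139.7 in WT libraries 1 to 4 and 18.6, 17, 17 and 16.1 in knockout libraries 1 to 4. The knockout libraries all lay far under the lowest WT library, between 12.8% and 14.8% of the WT mean, and they were more alike than the WT libraries. Its log2 fold change was -2.82 (SE 0.15, adjusted p 0.000496), and it was called with each library left out. Unlike most called genes, it had libraries 3 and 4 close to libraries 1 and 2.

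Myc (chr15:61985341-61990361) was held at 266, 248, 228 and 345 in the WT libraries in order and at 1116, 1719, 3003 and 3267 in the knockout libraries. Every knockout library was above every WT library, and libraries 3 and 4 held more than library 1 by a wide margin. The log2 fold change was 2.95 (SE 0.34, adjusted p 0.00818), and the adjusted p ran from 0.00201 to 0.0388 with 1 library left out. A symbol-level value does not separate the transgene from the endogenous gene.

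Prps1 (chrX:140456603-140476140), the sister isoform, rose from 34.5, 37.2, 33.5 and 45.3 in WT to 66, 94.5, 181 and 192 in the knockout group. The groups did not overlap (log2 fold change 1.69, SE 0.34, adjusted p 0.0168), but the call was lost without WT library 1, 2 or 3, with an adjusted p of up to 0.057. Its level in Eμ-Myc was 118 ± 17.3 (SD, n = 4). Prps1l3, a gene whose sequence is close to that of Prps1 and which may share its reads, rose as well (log2 fold change 0.99, adjusted p 0.0275). This call was lost without any 1 of the WT libraries or knockout libraries 3 or 4. With Prps2, these were the 3 calls among 5 genes of PRPP synthesis tested, and 1 to 4 were called with 1 library left out.

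Over the whole transcriptome, 12692 genes were tested and 3689 of them (29.1%) were called. Of these, 2542 (20.0% of the tested genes) were higher in the knockout group and 1147 (9.04%) were lower, and 1989 changed by at least 1 on the log2 scale (1413 higher, 576 lower). With libraries scaled by total coverage in place of trimmed means, the median of all genes shifted by -0.15 and 61.5% of called genes were higher in place of 68.9%. Median-of-ratios scaling gave 60.8% and a scaling against 1 library gave 56.1%. At an unadjusted p under 0.05 there were 6319 genes. The counts of every gene list below in the fit of all 8 libraries are to be read beside the 20.0% of all genes called higher and the 9.04% called lower. Counts with libraries left out are to be read beside all calls of the same fit. These were 687 of 12845 genes without WT library 3 and 6787 of 12823 without knockout library 1. They were 9009 of 13096 without knockout libraries 1 and 2 together, and 1376 of 13070 without libraries 3 and 4.

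The number of calls depended on single libraries. Without knockout library 1 it was 6787, and without knockout library 2 it was 4255. Leaving out knockout library 3 or 4 gave 916 and 837, and leaving out WT library 1, 2, 3 or 4 gave 990, 718, 687 and 1364. The decreases were more sensitive than the increases: 1147 decreases became 37 without WT library 2, 45 without WT library 3 and 65 without knockout library 4. Without knockout libraries 3 and 4 together, 1114 genes were called higher and 262 lower, and without libraries 1 and 2 together, 4579 were called higher and 4430 lower. Of the called genes, 2243 were lost in each of the 6 fits that left out a WT library or knockout library 3 or 4, among them 75.2% of the decreases and 54.3% of the increases.

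**Figure D2:**
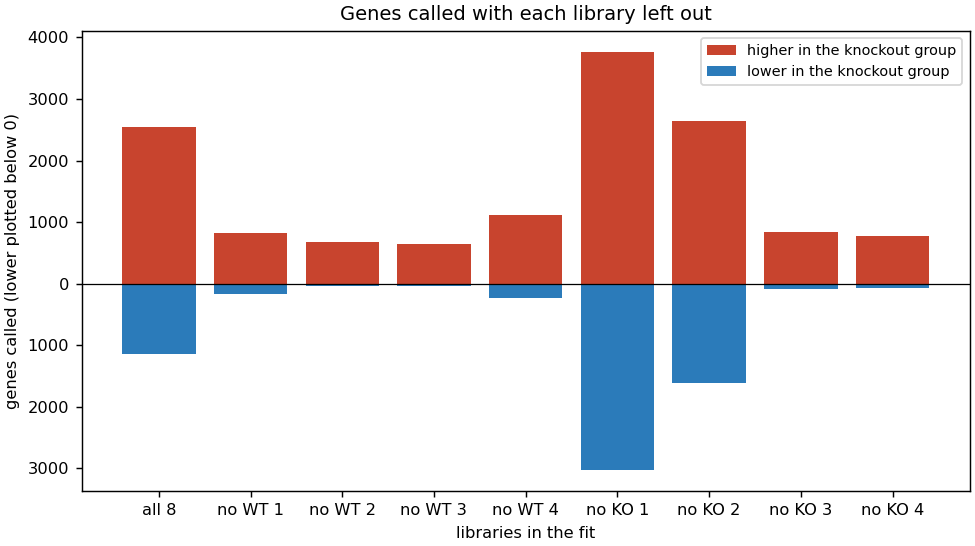
Genes called with all 8 libraries and with each library left out, with increases in the knockout group drawn above 0 and decreases below it. Both bars are longest without knockout library 1 (3761 higher, 3026 lower), and decreases nearly vanish without WT library 2 (37).

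A set of 613 genes (4.83% of those tested) was called with all libraries and again in each of the 8 fits that left out 1, and these are called stable here. Of the stable genes 583 were higher and 30 lower. The groups did not overlap for any of them, against 36.8% of all tested genes. Selection by calls on the same libraries favours groups that are apart, so this is not separate support. The 613 stable genes include 22 symbols of the gamma protocadherin cluster (Pcdhg), which share their last exons and so part of their coverage. These symbols were singled out after their values were seen. In 557 of the 583 increases, knockout libraries 3 and 4 were both above libraries 1 and 2.

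**Figure D3:**
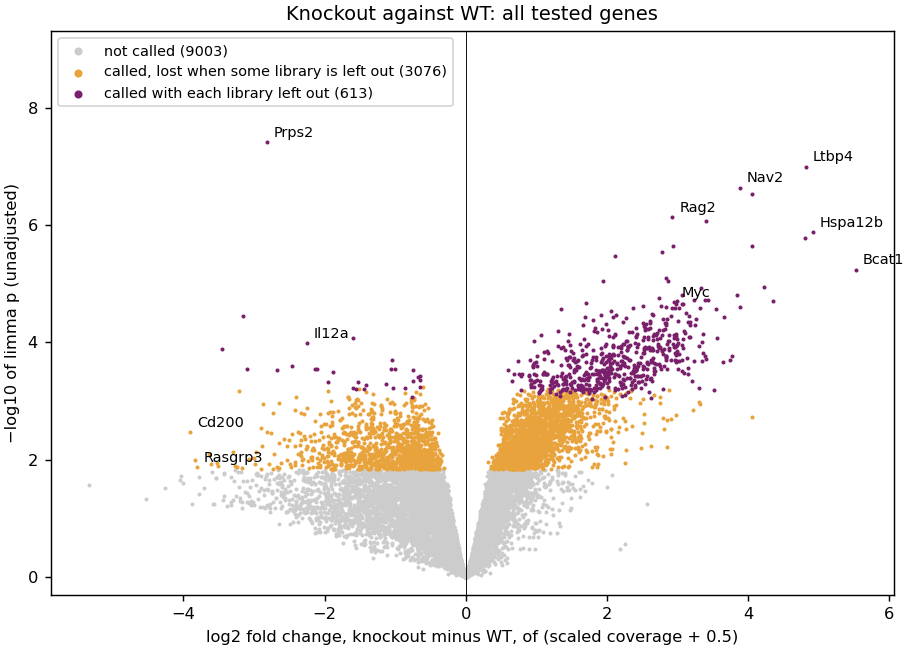
Log2 fold change of each tested gene in the knockout group against WT (x axis) and −log10 of its unadjusted limma p (y axis), with the calls coloured by whether they held with each library left out. The 613 stable genes are mostly increases (583), and Cd200 and Rasgrp3, among the largest decreases, are not stable.

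Genes of cell division were higher in the knockout group, and most of these calls held with each library left out. All 20 mitosis genes tested were called higher, with a median log2 fold change of 2.98 against -0.01 for all genes, and 19 of the 20 were stable. Their mean log2 difference from WT was 1.88, 2.48, 3.63 and 3.59 in knockout libraries 1 to 4. Between 19 and 20 were called with 1 library left out, and 20 without knockout libraries 3 and 4.

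Ccnb1, the cyclin B that drives entry into mitosis, was at 16.9, 7.35, 7.98 and 8.26 in WT and 43.3, 65, 200 and 186 in the knockout group (log2 fold change 3.34, SE 0.53, adjusted p 0.00953). WT library 1 stood above the other WT libraries, yet the lowest knockout library was well above it. Ttk, the spindle checkpoint kinase MPS1, was at 15.5, 5.54, 7.98 and 8.81 in WT and 43.2, 65.2, 161 and 158 in the knockout libraries. Kif11, the kinesin that separates the spindle poles, was at 19.4, 9.64, 12.2 and 12.3 and 60.8, 91.8, 189 and 201. Both showed the order seen for Ccnb1, with WT library 1 the highest of WT and knockout library 1 the lowest of its group.

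All 21 S-phase genes were called higher (median 2.16), 19 of them stable, and mean log2 differences from WT by library were 1.39, 1.78, 2.85 and 2.84. Mcm10, a factor of DNA replication, rose from 12.2, 8.21, 7.89 and 7.59 in WT to 48.3, 65.2, 155 and 147 (log2 fold change 3.31, adjusted p 0.00818). Cdc6, the origin licensing factor, rose by 3.06, and Rrm2, the regulated subunit of ribonucleotide reductase, by 2.79. No knockout library overlapped WT for any of these 3 genes.

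In the list of G1 cyclins, their kinases and E2F factors, 14 of 19 genes rose and 1 fell, 9 of them stable, with a median of 1.04. With 1 library left out 9 (without WT library 3) to 17 (without knockout library 1) were called. Ccne2, a cyclin E that starts S phase, was at 20.3, 11.9, 13.4 and 8.93 in WT and 64.9, 90.2, 238 and 255 in the knockout group. Ccna2 rose by 3.08 and E2f7, a repressor that E2F itself induces, by 2.96. Ccnd2, the D-type cyclin of resting and antigen-activated B cells, was the decrease: it was at 54.3, 64, 69.6 and 87.2 in WT and 50.8, 46.5, 21.8 and 19.2 in the knockout group, where libraries 1 and 2 lay just under the lowest WT library and libraries 3 and 4 far under it. Its call (log2 fold change -1.09, adjusted p 0.0457) was lost without any 1 of the WT libraries or knockout libraries 3 or 4.

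Of 7 inhibitors of cyclin-dependent kinases, 3 rose and 2 fell, with 2 to 6 called when 1 library was left out. Cdkn2a, which encodes INK4A and the MDM2 antagonist ARF, was at 1.85, 2.58, 2.76 and 1.45 in WT and 12.1, 15.8, 30.2 and 28.9 in the knockout group (log2 fold change 2.99, SE 0.34, adjusted p 0.00818). Cdkn2c (INK4C) rose by 1.58 and was stable like Cdkn2a. Cdkn1c (p57) was at 2.54, 2.19, 1.62 and 4.46 in WT and 6.71, 16.2, 47.3 and 57.9 in the knockout group, so library 1 lay near the highest WT library, and its call was lost without knockout library 3 or 4 or WT library 1, 2 or 3. Cdkn1b (p27), which holds resting cells out of the cycle, fell from 175, 144, 135 and 162 to 117, 104, 66.1 and 70.0, with a call lost without any 1 of the WT libraries or knockout libraries 3 or 4.

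Of 13 genes of the p53 list, 3 were higher and 1 lower, which is near the share of all genes. Means against WT were 0.04, 0.18, -0.49 and -0.45 in knockout libraries 1 to 4, and 1 (without knockout library 4 or WT library 2 or 3) to 8 (without knockout library 1) were called with 1 library left out. Trp53 itself was at 288, 361, 322 and 369 in WT and 484, 585, 598 and 633 in the knockout group, and its increase of 0.78 was stable (adjusted p 0.0108). Aen, a p53-induced nuclease, rose by 0.87, and Sesn1, a p53-induced regulator of growth signalling, fell by 1.00. The call of Aen was lost without knockout library 4 or WT library 1, 2 or 3, and that of Sesn1 without knockout library 3 or 4 or WT library 2 or 3. The list's median was 0.04 and turned to -0.09 with scaling by total coverage.

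Within the BCL2 family, 1 of 14 genes was higher and 3 lower, beside 20.0% and 9.04% of all genes. With 1 library left out, 0 to 7 were called. Mcl1, a survival factor that mature B cells need, was at 791, 768, 679 and 574 in WT and 518, 457, 222 and 248 in the knockout libraries (log2 fold change -1.04, adjusted p 0.0359). Bcl2a1b and Bcl2a1d, near-identical survival genes whose reads may be split between copies, fell by 2.16 and 2.19. Bak1, a pore-forming killer protein, was called at 0.55, and the call was lost under each other scaling. No call of this family held with any 1 of the WT libraries or knockout libraries 3 or 4 left out.

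Of the 10 DNA methylation and Polycomb genes tested, 5 rose and 1 fell, 3 of them stable, with 3 to 9 called when 1 library was left out. Uhrf1, which recruits the maintenance DNA methyltransferase to newly copied DNA, was at 94.1, 77.4, 89.5 and 74.3 in WT and 454, 621, 1306 and 1362 in the knockout group (log2 fold change 3.33, adjusted p 0.00818). Dnmt1, that methyltransferase, rose by 1.74 and Ezh2, the Polycomb methyltransferase of dividing cells, by 2.12, all 3 stable. Ezh1, its counterpart in resting cells, fell from 39.2, 43.6, 46.3 and 44.2 to 33.5, 30.3, 17.1 and 17.4, a call lost without any 1 of the WT libraries or knockout libraries 3 or 4.

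**Figure D4:**
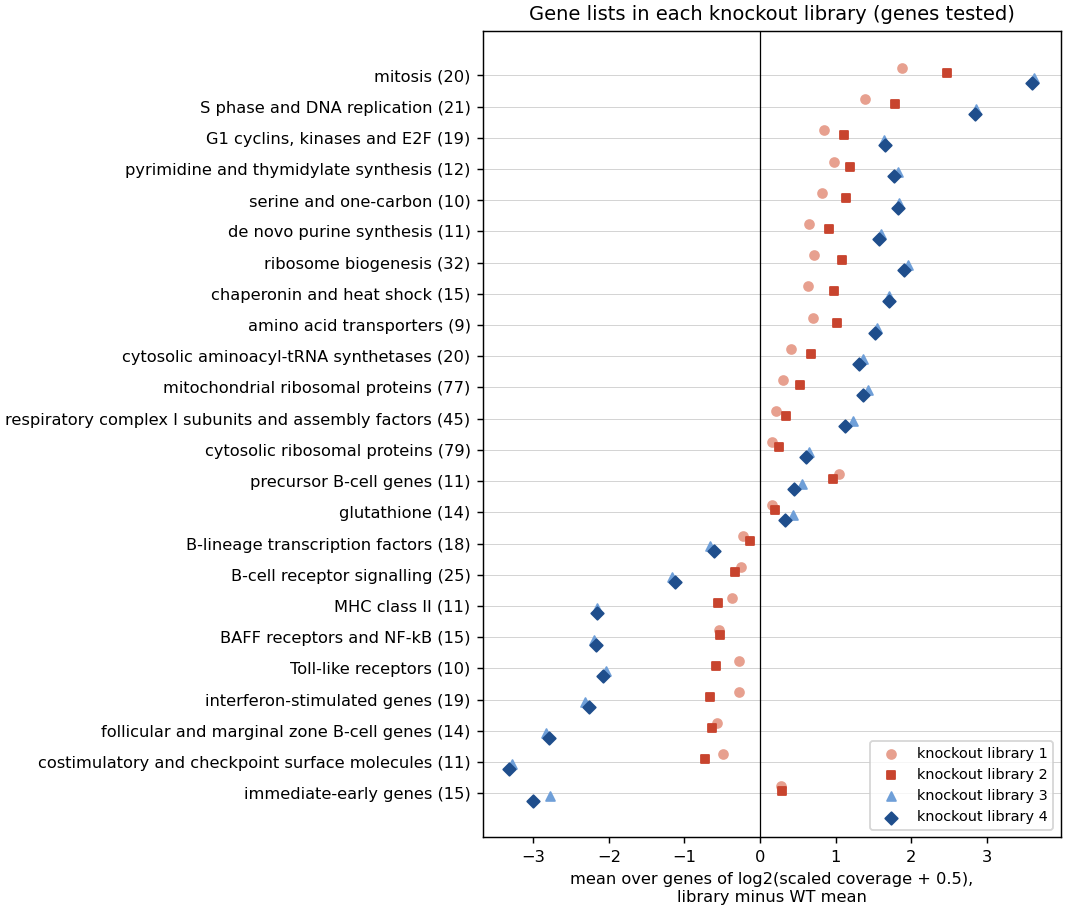
Mean over the tested genes of each list of log2(scaled coverage + 0.5) in a knockout library minus the WT mean, with 1 point per knockout library. For the mitosis list the means are 1.88, 2.48, 3.63 and 3.59 in libraries 1 to 4, whereas for the immediate-early list they are 0.27, 0.30, -2.78 and -3.01.

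The largest increases that were stable include several genes nearly silent in WT B cells. Bcat1 (chr6:144993835-145076157), the cytosolic aminotransferase of branched-chain amino acids, had a scaled coverage of 0.462, 0.859, 0.76 and 0.669 in WT and 20.4, 34.6, 109 and 106 in the knockout group. It stood at under 1 in each WT library and at over 20 in each knockout library (log2 fold change 5.52, SE 0.54, adjusted p 0.00562). In Eμ-Myc libraries it was 52.5 ± 8.14 (SD, n = 4).

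Hspa12b (chr2:131127412-131145985), a distant member of the HSP70 family, was at 0.154, 0.00, 0.095 and 0.335 in WT and 10.2, 13.1, 30.3 and 29.5 in the knockout group. Ltbp4 (chr7:27305140-27339720), which binds latent TGF-β in the matrix, was at 0.462, 1.15, 1.04 and 1.45 in WT and 29.9, 39, 45.1 and 54.1 in the knockout libraries (log2 fold change 4.82, SE 0.28, adjusted p 0.000651). Nav2 (chr7:48959063-49610090), a cytoskeletal guidance protein, was at 1.23, 0.477, 0.855 and 1.34 in WT and 16.7, 21.3, 21.9 and 23.3 in the knockout group. For Nav2 the 4 knockout libraries were close to each other, unlike most genes of the comparison.

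Uchl1, a deubiquitinating enzyme, rose from 2.93, 6.78, 4.75 and 5.58 to 80.5, 110.3, 236 and 233, and Alpl, the tissue-nonspecific alkaline phosphatase, from 7.09, 13.2, 14.2 and 6.25 to 94.5, 139, 315 and 306. Eps8l2, a regulator of actin, rose by 4.36, and Fstl1, a secreted glycoprotein, by 4.05. Nt5dc2, a protein of the nucleotidase-domain family, rose by 3.88, and Ptgr1, an NADPH-dependent reductase of prostaglandins and lipid aldehydes, by 3.85. For these 6 genes every knockout library was above every WT library, as for all stable increases. Eml1, a microtubule protein, had a rise of similar size (4.06) that was not stable: its knockout libraries held 2.48, 9.03, 53.9 and 54, far higher in libraries 3 and 4, and its call was lost without either of them or without WT library 1, 2 or 3.

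**Figure D5:**
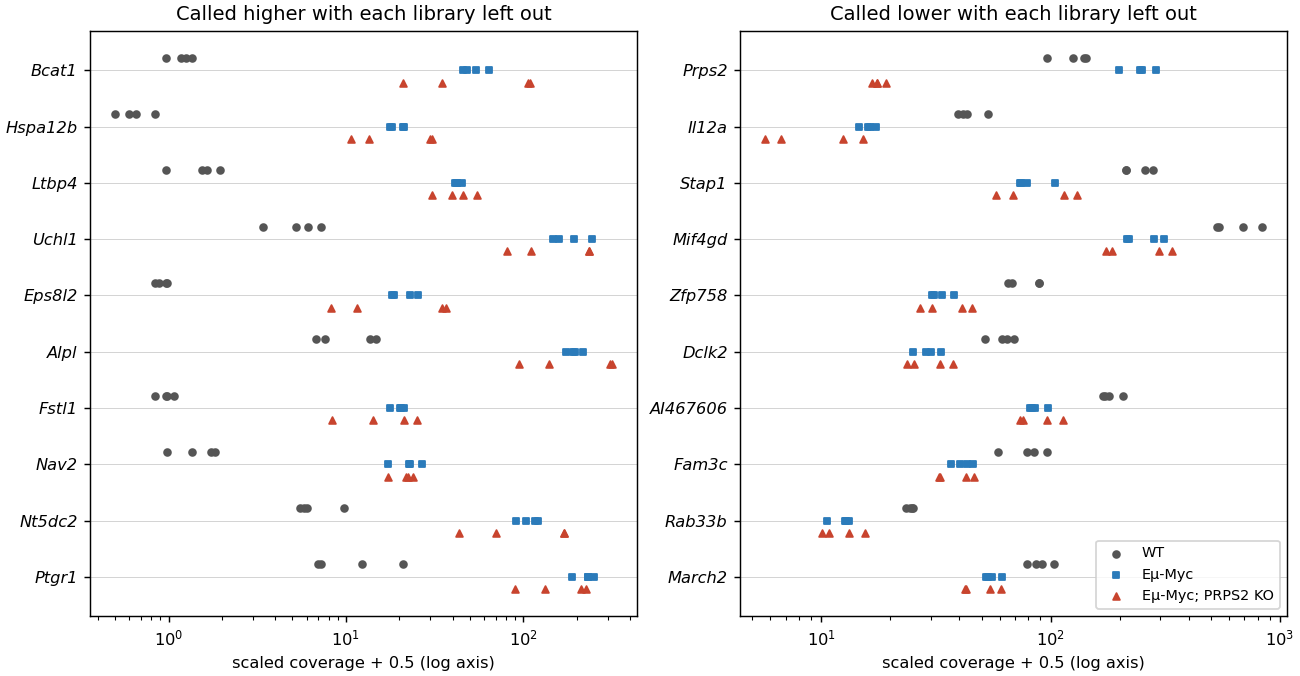
Scaled coverage + 0.5 on a log axis of the 10 largest stable increases and the 10 largest stable decreases among genes whose mean over the 8 libraries reached 8, with 1 point per library. The knockout libraries lie apart from WT for each gene shown, as for all stable genes, and Prps2 is the gene whose knockout and Eμ-Myc libraries are farthest apart.

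Most genes of de novo purine synthesis, which starts from PRPP, were called higher. Among 11 genes of de novo purine synthesis, 9 were called higher and none lower (median 1.64), with 4 stable. Calls ranged over 4 (without WT library 1, 2 or 3) to 9 (without knockout library 1 or 2) with 1 library left out. Ppat, the enzyme that takes PRPP into the purine pathway, was at 18.1, 25.7, 22.7 and 23 in WT and 36.2, 56.6, 121 and 117 in the knockout group (log2 fold change 1.71, adjusted p 0.0221), and its call was lost without any 1 of the WT libraries or knockout libraries 3 or 4. Gart, which catalyses several later steps, was at 97.7, 120.1, 119.6 and 129 and 229.5, 298, 583 and 549.7, and its increase of 1.73 was stable. Pfas rose by 1.76, lost without WT library 1, 2 or 3.

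Of 10 genes of purine salvage and breakdown, 4 rose, beside 20.0% of all genes, and 4 of 10 fold changes were negative. Between 0 and 4 were called with 1 library left out. Means against WT were 0.28, 0.24, -0.16 and -0.36 in knockout libraries 1 to 4. Adk, which phosphorylates adenosine, was at 44.8, 42.2, 39.8 and 49.3 in WT and 82.1, 114, 274 and 252 in the knockout group, and its call was lost without WT library 1, 2 or 3. Hprt and Aprt, which join PRPP to free purine bases, rose by 1.17 and 0.98. Both of these calls were lost without any 1 of the WT libraries or knockout libraries 3 or 4, and for Aprt the groups overlapped and the call was also lost under median-of-ratios scaling and with trimmed means against 1 library.

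Of 12 genes of pyrimidine and thymidylate synthesis, 8 rose and 1 fell, and the 8 increases were stable (median 1.90). Dctd, deoxycytidylate deaminase, was at 11.5, 9.54, 9.12 and 14.6 in WT and 46.3, 59.8, 111 and 119 in the knockout group (log2 fold change 2.77, SE 0.33, adjusted p 0.00818). Uck2, the uridine-cytidine kinase of proliferating cells, rose by 2.64. Ctps2, a CTP synthetase, was the decrease at -0.45, with a call lost without any 1 of the WT libraries or knockout libraries 3 or 4.

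Serine and one-carbon metabolism, which supplies carbon for purines and thymidylate, had 8 of 10 genes higher and 1 lower (median 1.85), with 5 stable and between 5 and 10 called with 1 library left out. Shmt1, cytosolic serine hydroxymethyltransferase, was at 8.24, 10.4, 12 and 10.9 in WT and 47.8, 73.3, 179.8 and 174 in the knockout group (log2 fold change 3.25, SE 0.42, adjusted p 0.00877). Shmt2, its mitochondrial counterpart, rose by 2.14, and Psat1 of serine synthesis by 2.16. Mthfs, which recycles a stored folate, fell from 64.3, 49.4, 42.6 and 47.2 to 34.8, 27.3, 19.4 and 20.4, lost without knockout library 3 or 4 or WT library 1, 2 or 3.

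Transporters and polyamine enzymes rose in part. Of 9 amino acid transporters 7 rose and none fell, 5 of them stable. Slc7a5, the light chain of the large neutral amino acid exchanger, was at 17.8, 14.9, 16.2 and 22.2 in WT and 45.5, 72.1, 143 and 140.4 in the knockout group. Slc7a1, the arginine and lysine carrier, rose by 1.49, and Slc1a4, a serine and alanine carrier, by 2.53 from levels under 1. Srm, spermidine synthase, was at 57.6, 61.2, 52.5 and 70.3 and 184, 259.5, 550.4 and 534 (log2 fold change 2.51, adjusted p 0.00877) and was stable. Odc1, the first enzyme of polyamine synthesis, rose by 1.64 and Amd1 by 1.04, calls lost without any 1 of the WT libraries or knockout libraries 3 or 4. In all, 4 of 10 polyamine genes were called, and with 1 library left out 1 (in 6 of the 8 fits without 1 library) to 8 (without knockout library 1).

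Glycolysis was mixed, with 8 of 20 genes higher and 1 lower and 1 stable. The count ran from 1 (without WT library 2 or 3) to 14 (without knockout library 1). Slc16a1, the lactate carrier MCT1, was the stable gene, at 10.6, 9.83, 10.6 and 15.3 in WT and 44.1, 63.9, 162 and 162 in the knockout group (log2 fold change 2.97, adjusted p 0.00877). Ldha, lactate dehydrogenase A, was at 1244, 954, 864 and 1063 in WT and 1575, 2048, 4813 and 4763 in the knockout libraries, and its call was lost without any 1 of the WT libraries or knockout libraries 3 or 4. Tpi1 rose by 1.68, lost without WT library 2 or 3. Slc2a1, the glucose carrier GLUT1, went the other way, from 61.8, 44.4, 39.3 and 37.3 in WT to 30.1, 29.8, 18.4 and 19.9, and its call was lost as for Ldha.

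Lipid synthesis had 5 of 21 genes higher and none lower, close to the share of all genes. The other scalings also called 2 or 3 genes lower, and 2 to 11 genes were called with 1 library left out. Fasn, fatty acid synthase, was at 21.3, 23.2, 27.8 and 30.8 in WT and 48.9, 63.2, 103 and 98.1 in the knockout group and was stable (log2 fold change 1.53, adjusted p 0.0103).

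The CACGTG E-box, the sequence that MYC with MAX is known to bind, was searched in RefSeq promoter windows of 300 bases, 250 before to 50 after a gene's start. The motif reads the same on both strands. It was in 12.3% of the 2419 windows matched to genes called higher, 8.97% of the 1171 windows of genes called lower, 1253 of the 12506 windows of all genes tested and 7.15% of the 32851 windows of the table. Among stable increases it was in 11.3% of 549 windows. Symbols matched for 9784 of the 12692 genes tested, and a gene can have several windows. For illustration, 60 bases around the motif are given for 4 genes with stable increases and for Zfp758, a zinc finger gene with a stable decrease, with the motif in capitals. A match is a description of these letters and not of binding.
Ttk, chr9:83834617-83834676, + strand: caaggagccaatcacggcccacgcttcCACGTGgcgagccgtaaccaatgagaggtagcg
Slc16a1, chr3:104638437-104638496, + strand: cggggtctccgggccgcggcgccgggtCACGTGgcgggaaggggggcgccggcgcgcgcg
Hspd1, chr1:55088291-55088350, - strand: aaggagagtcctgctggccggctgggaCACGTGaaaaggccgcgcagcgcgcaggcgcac
Iars, chr13:49682034-49682093, + strand: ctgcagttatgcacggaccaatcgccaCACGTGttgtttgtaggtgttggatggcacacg
Zfp758, chr17:22361397-22361456, + strand: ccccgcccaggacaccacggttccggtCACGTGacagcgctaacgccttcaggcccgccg

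All 32 genes of ribosome biogenesis had a positive fold change and 30 were called higher (median 1.44), with 12 stable. The count was 12 (without WT library 3) to 32 (without knockout library 1) with 1 library left out, and 23 without knockout libraries 3 and 4 and 32 without knockout libraries 1 and 2. Gnl3, nucleostemin, was at 103, 119, 115 and 143 in WT and 280.0, 386, 736 and 701 in the knockout group (log2 fold change 2.02, SE 0.32, adjusted p 0.00953). Nolc1, a nucleolar scaffold, rose by 1.97 and Nop16 by 1.85, and in both the groups were apart.

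Of 79 cytosolic ribosomal protein genes, 78 had a positive fold change, but 18 were called (median 0.39), a share close to that called higher among all genes, and none was stable. Their count was 0 (in 5 of the 8 fits without 1 library) to 51 (without knockout library 1), and 11 to 15 under the other scalings. Rps2 was at 1337, 1556, 1385 and 1728 in WT and 1923, 2168, 2958 and 2951 in the knockout group, with groups apart and a log2 fold change of 0.72. Rps27l, a p53-linked paralogue, had the largest called increase at 1.58, and Rpl15 rose by 0.69. The call of Rps2 was lost without knockout library 3 or 4 or WT library 1, 2 or 3, and those of the others also without WT library 4. That of Rpl15 was also lost with trimmed means against 1 library.

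All 77 mitochondrial ribosomal protein genes had a positive fold change, 51 were called higher and none was stable (median 0.91). Their count was 0 (without WT library 1, 2 or 3) to 72 (without knockout library 1) with 1 library left out, and 15 without knockout libraries 3 and 4 and 75 without knockout libraries 1 and 2. With trimmed means against 1 library 29 were called. Mrpl12 was at 91, 126, 106 and 106 in WT and 177, 232, 667 and 620.0 in the knockout group, with libraries 1 and 2 close to each other and libraries 3 and 4 far higher. Of 45 genes of respiratory complex I and its assembly, 18 rose and none was stable. Under median-of-ratios scaling 11 were called and with trimmed means against 1 library 7, and with 1 library left out 0 (in 5 of the 8 fits without 1 library) to 38 (without knockout library 1). Ndufa12, a subunit, was at 82.8, 102, 84.7 and 85 and 140.2, 164, 346 and 352.

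Of 20 cytosolic aminoacyl-tRNA synthetases, 17 rose (median 0.91), with 1 (without WT library 2 or 3) to 19 (without knockout library 1) called when 1 library was left out. Iars, which charges the isoleucine tRNA, was the stable gene, at 30.1, 41.2, 39.5 and 31.6 in WT and 58, 75.5, 123 and 119 in the knockout group. Of 15 chaperonin and heat shock genes 14 rose (median 1.27), with a count of 2 (without WT library 3) to 15 (without knockout library 1 or 2). Hspd1, the mitochondrial chaperonin HSP60, was at 252, 243, 227 and 275 and 539.9, 769.5, 1545 and 1541 (log2 fold change 2.00, adjusted p 0.0104) and was stable.

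Of 9 genes of the integrated stress response, 1 was higher and 1 lower, beside 20.0% and 9.04% of all genes. Fold changes were negative for 7 of 9, with a median of -0.87. Means against WT were 0.15, 0.09, -0.94 and -0.90 in knockout libraries 1 to 4, and 0 to 5 genes were called with 1 library left out. Asns, asparagine synthetase, was at 15.7, 2.48, 2.85 and 4.35 in WT and 19.4, 23.2, 75.9 and 68.8 in the knockout group, so WT library 1 lay near knockout library 1, and its call was lost without knockout library 3 or 4 or WT library 2, 3 or 4. Ddit3, the transcription factor CHOP, fell by 1.17 and its call was lost without any 1 of the WT libraries or knockout libraries 3 or 4.

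Redox genes, the subject of the study's title, were examined in 5 lists, of which 2 held stable genes. In the thioredoxin, peroxiredoxin and glutaredoxin list 7 of 16 genes rose and 2 fell, none stable, with 0 (without knockout library 4 or WT library 2 or 3) to 13 (without knockout library 1) called when 1 library was left out and 4 increases with trimmed means against 1 library. Prdx4, the peroxiredoxin of the endoplasmic reticulum, was at 87.1, 103, 88.5 and 73.5 in WT and 158, 199, 489.9 and 456 in the knockout group (log2 fold change 1.72, SE 0.37, adjusted p 0.0201), a call lost without knockout library 4 or any 1 of the WT libraries. Glrx3 rose by 1.55 and Prdx1 by 0.99. Txnip, which inhibits thioredoxin and glucose uptake, was at 1480, 1063, 1060 and 1070 in WT and 859, 748, 221 and 287 in the knockout group. Its libraries were apart from WT, but the call (adjusted p 0.0495), like those of Glrx3 and Prdx1, was lost without any 1 of the WT libraries or knockout libraries 3 or 4. That of Prdx1 was also lost with trimmed means against 1 library.

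Among 14 glutathione genes 4 rose and none fell, beside 20.0% and 9.04% of all genes, and each other scaling called 3 higher. With 1 library left out the count was 1 (without WT library 1, 2 or 3) to 9 (without knockout library 1). Gsto1, a glutathione transferase of the omega class, was stable, at 98.9, 74.2, 69.6 and 50.4 in WT and 151, 154, 272 and 272 in the knockout group. Gclc, the catalytic subunit for the first step of glutathione synthesis, was at 55.1, 68.4, 69.6 and 68.2 and 103, 110.3, 179.8 and 186 (log2 fold change 1.09, adjusted p 0.0172), and its call was lost without WT library 1, 2 or 3. The groups did not overlap for either gene.

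Of 8 genes of the pentose phosphate pathway, which makes ribose 5-phosphate and NADPH, 3 rose, beside 20.0% of all genes. With 1 library left out, 0 (in 5 of the 8 fits without 1 library) to 3 (without knockout library 1 or 2) were called. Tkt, transketolase, was at 361, 214, 196 and 231 in WT and 373, 419.9, 631 and 622 in the knockout group, where library 1 lay just above WT library 1, and its call was lost without knockout library 3 or 4 or WT library 2, 3 or 4. Pgls and Rpia, the lactonase and the ribose isomerase, rose by 0.96 and 0.73, and these calls were lost without any 1 of the WT libraries or knockout libraries 3 or 4, with groups that overlapped for Rpia. Among 9 other genes listed for NADPH supply 6 rose, with 2 (without WT library 2 or 3) to 8 (without knockout library 1) called when 1 library was left out. Mthfd1, Mthfd2 and Mthfd1l are also members of the serine and one-carbon list, so they are counted in both. The stable genes were 2: Mthfd1 of folate metabolism, at 31.8, 35.4, 33.6 and 38.4 in WT and 81.2, 108, 231 and 226 in the knockout group, and Nnt, the mitochondrial transhydrogenase, which rose by 1.34. Of the 9 superoxide, catalase and NRF2 genes 2 rose and 1 fell, shares near those of all genes, with 0 to 4 called when 1 library was left out: Park7 rose by 1.14 and Sod2 by 0.71, and Sqstm1, the p62 adaptor, was at -0.84, none of them stable. The calls of Sod2 and Rpia were also lost with trimmed means against 1 library.

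Of 11 genes of B-cell precursors tested, 6 rose, 4 of them stable, and none fell, though 4 fold changes were negative (median 1.25), with means against WT of 1.05, 0.97, 0.56 and 0.45 in knockout libraries 1 to 4. Rag2, a subunit of the recombinase that assembles antigen receptor genes, was at 0.231, 0.477, 0.19 and 0.446 in WT and 5.05, 6.75, 5.86 and 5.52 in the knockout group (log2 fold change 2.92, SE 0.22, adjusted p 0.00179). Rag1, its partner, was at 1.46, 3.53, 3.04 and 3.68 and 22.4, 27.6, 8.4 and 10.2, with knockout libraries 1 and 2 above libraries 3 and 4. Igll1, of the surrogate light chain, rose by 2.10. In Eμ-Myc the levels were 9.04 ± 0.939 for Rag2 and 26.5 ± 6.22 for Rag1 (SD, n = 4).

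Lists of mature and activated B-cell genes had members that were called lower, and the list means were lowest in knockout libraries 3 and 4, the libraries that also had the lowest T-cell, NK-cell and myeloid marker sums. Of 14 follicular and marginal zone genes, 7 were lower and 1 higher (median -1.39), and none was stable. Per-library means were -0.57, -0.64, -2.83 and -2.79, and the count was 0 (without WT library 2) to 13 (without knockout library 1) with 1 library left out. Cxcr5, the receptor that brings B cells into follicles, was at 139.8, 309.5, 283 and 108 in WT and 97.4, 91.5, 14.6 and 15.1 in the knockout group, with libraries 1 and 2 just under the lowest WT library. Dtx1, a Notch target of marginal zone B cells, was at 101, 138, 122 and 132 and 71.7, 67, 15.4 and 16.6. Mzb1, which assists antibody secretion, was the increase, from 236, 436, 360.4 and 185 to 436, 535, 792 and 741. Its groups only touched: WT library 2 and knockout library 1 differed by less than 1. These 3 calls were lost without any 1 of the WT libraries or knockout libraries 3 or 4.

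Costimulatory and checkpoint molecules had 4 of 11 genes lower (median -1.69), with 0 (in 6 of the 8 fits without 1 library) to 9 (without knockout library 1) called. Cd200, an inhibitory ligand, gave the largest called decrease of the comparison under the naming rule, at 57.9, 91.1, 73.8 and 71.7 in WT and 20.3, 15.5, 1.1 and 0.552 in the knockout group (log2 fold change -3.91, SE 0.96, adjusted p 0.0273). Its SE, like that of the genes below, was large, and libraries 1 and 2 kept part of the WT level and libraries 3 and 4 almost none. Btla, an inhibitory receptor, was at 344, 649, 629 and 397 and 272, 196, 63.2 and 73.1. The other large decreases were Egr3, Rasgrp3, Il4i1, Pxdc1, Gpr183, Lta, Xkrx, Il21r and Pla2g2d, with log2 fold changes from -3.83 to -3.24. The groups did not overlap for Btla, and for the others this was a condition of the naming rule. For each of these 11 genes the call was lost without any 1 of the WT libraries or knockout libraries 3 or 4.

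Rasgrp3, which links the B-cell receptor to RAS, was at 141, 215, 211 and 121 in WT and 68.3, 59.6, 1.77 and 1.66 in the knockout group. It was 1 of 3 decreases among 25 genes of B-cell receptor signalling, beside 9.04% of all genes called lower, with no increase and a median of -0.44. The other scalings called 5 to 7 of the 25 lower, and 0 to 10 were called with 1 library left out. Bank1, an adaptor, was at 303, 626, 616 and 315 and 294, 259.5, 129 and 127, where knockout library 1 lay just under the lowest WT library. Gpr183, the receptor EBI2 that positions B cells in lymphoid organs, was at 38.8, 63, 61.3 and 44.9 and 20.3, 18.9, 0.442 and 0.552. Il21r, the receptor for a T-cell cytokine of the germinal centre, was at 114, 169, 156 and 164 and 64.1, 64.8, 3.98 and 2.54.

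In the list of BAFF receptors and NF-κB, 6 of 15 genes were lower and none higher (median -1.41), with 0 (in 6 of the 8 fits without 1 library) to 12 (without knockout library 1) called and 6 to 9 under the other scalings. Relb, a subunit of the alternative NF-κB pathway, was at 186, 234, 195 and 157 in WT and 113, 93.7, 15.2 and 15.8 in the knockout group. Tnfrsf13c, the BAFF receptor through which mature B cells survive, was at 332, 737, 613 and 316 and 262, 249, 91.3 and 81.1. Of the 10 Toll-like receptor genes, 1 (Tlr1, -2.64) was called lower, near the 9.04% of all genes, and of the 19 interferon-stimulated genes 4, with Ifit1 at -2.07 and Ifit2 at -1.37. The interferon count was 3 to 10 under the other scalings and 0 to 17 with 1 library left out, and the Toll-like count was 0 to 8. All 10 Toll-like genes had a negative fold change (median -1.26), with 6 at an unadjusted limma p under 0.05. Fold changes were negative for 18 of the 19 interferon-stimulated genes (median -1.34), with 16 at such a p. Over all genes 49.8% had such a p, in either direction. The calls of Tlr1 and Ifit1 were lost without any 1 of the WT libraries or knockout libraries 3 or 4, and that of Ifit2 without knockout library 3 or 4 or WT library 2, 3 or 4. All 11 MHC class II genes had a negative fold change (median -1.23) and an unadjusted p under 0.05, yet 1 was called, near the 9.04% called lower among all genes. This was H2-Ob, at 380.0, 646, 575 and 373 in WT and 318, 272, 95 and 104 in the knockout group. The other scalings called 2 to 5 of them. With knockout library 1 or 2 left out all 11 were called, and with any other library left out none was.

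Immediate-early genes, which respond within minutes to receptor signals and to handling, included 1 increase and 1 decrease among 15 tested. These counts stand beside 20.0% of all genes called higher and 9.04% called lower. Between 0 and 3 of these genes were called with 1 library left out, and 1 under each of the 3 other scalings. Their means against WT were 0.27, 0.30, -2.78 and -3.01 in knockout libraries 1 to 4. Egr3, a transcription factor of antigen-activated lymphocytes, was at 74, 187, 169 and 99.2 in WT and 44, 38.6, 1.55 and 1.1 in the knockout group, so all 4 knockout libraries were under WT. Nr4a2 was called higher (log2 fold change 1.01), but the call was lost without any library except WT library 4 and under each of the 3 other scalings.

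Of 18 transcription factors that set B-cell identity, 1 was higher and 2 lower, beside 20.0% and 9.04% of all genes, with 13 negative fold changes and a median of -0.16. Means against WT were -0.22, -0.13, -0.67 and -0.61 in knockout libraries 1 to 4, and 0 to 7 were called with 1 library left out. Tcf3, which encodes E2A, was at 894, 1475, 1215 and 918 in WT and 1679, 1975, 2783 and 2778 in the knockout group. Foxo1, which drives recombinase and homing genes, was at 71.3, 116, 110.4 and 128 and 58.2, 64.5, 20.7 and 23.3, and Mef2c fell by 1.08. The calls of Tcf3 and Foxo1 were lost without knockout library 3 or 4 or WT library 1, 3 or 4, that of Foxo1 also without WT library 2, and that of Mef2c without knockout library 3 or 4 or WT library 2 or 3. Of 8 plasma cell markers tested Slamf7 was the single call, stable, at 66.6, 76.8, 90.2 and 55.9 in WT and 133, 141, 207 and 212 in the knockout group. Most plasma cell markers went the other way, with 5 of 8 fold changes negative and a median of -0.26. The mean of the 8 against WT was 0.15, 0.23, -1.24 and -1.24 in knockout libraries 1 to 4. Of 6 platelet markers 5 were called lower, but their groups overlapped, and 0 were called without knockout library 3 or 4 or WT library 1, 2 or 3.

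Among the 30 stable decreases, those that met the coverage minimum for naming, a mean of 8, were led by Prps2 and then Il12a. Il12a (chr3:68690644-68698550), the p35 subunit shared by IL-12 and IL-35, was at 42.5, 52.6, 40.8 and 38.8 in WT and 12, 14.7, 5.19 and 6.18 in the knockout group (log2 fold change -2.25, SE 0.32, adjusted p 0.00877). Every knockout library was far under the lowest WT library. Stap1, an adaptor of B-cell receptor signalling, was at 212, 279, 258 and 213 and 129.5, 114, 68.3 and 57.4. Mif4gd, a partner of histone mRNA translation, was at 542, 833, 689 and 529 and 336, 296, 174 and 185.

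Smaller stable decreases were measured for Zfp758 (-1.13), the kinase gene Dclk2 (-1.06), AI467606 (-1.04), the secreted factor gene Fam3c (-1.04), the Golgi GTPase gene Rab33b (-1.0) and the membrane ubiquitin ligase gene March2 (-0.86). Rab33b was at 23, 24.5, 23.9 and 24.3 in WT, against 15, 12.7, 9.61 and 10.3 in the knockout group. Below the coverage minimum for naming, and chosen after its values were seen, was Rgs13, which is known from germinal centre B cells. Rgs13 was at 5.16, 12.8, 14.3 and 5.02 in WT and 0.619, 1.04, 0.00 and 0.00 in the knockout group (log2 fold change -3.45, adjusted p 0.00889). It was stable, and its highest knockout library was far under the lowest WT library.

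Within the MYC network 3 of 11 genes rose and none fell, beside 20.0% and 9.04% of all genes. Between 2 and 4 were called with 1 library left out. The other scalings gave 2 increases each, and median-of-ratios and total coverage scaling 1 decrease. Mxd3, a MAX partner that is high in dividing cells, was at 12.9, 7.45, 6.65 and 6.92 in WT and 25.3, 25.9, 48.7 and 56.4 in the knockout group and was stable (log2 fold change 2.10, adjusted p 0.00953). Mxi1 was called at 0.75 with groups that overlapped, since WT library 1 was above knockout libraries 1 and 2, and the call was lost without knockout library 2, 3 or 4 or WT library 2, 3 or 4 and under each of the 3 other scalings. The list median of -0.03 was near that of all genes.

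Measured directly against the 4 Eμ-Myc libraries, 1 of 12535 genes tested (0.00798%) was called in the knockout group, Prps2, whose Eμ-Myc level was 245 ± 37.4 (SD, n = 4). At an unadjusted p under 0.05 there were 120 genes. Of the 613 stable genes 606 could be tested in this way, and again Prps2 was the 1 called, with 9 at an unadjusted p under 0.05. The comparison carries the spread of the knockout group: 3569 genes were called against Eμ-Myc without knockout libraries 1 and 2 and 556 without libraries 3 and 4. A p that misses the threshold does not show that levels were equal. The WT comparisons of both transgenic groups share the WT libraries, so no overlap between them is given.

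Levels side by side show where the groups lay for genes named above. Means ± SD over 4 libraries follow in the order WT, Eμ-Myc, knockout. For Myc they were 272 ± 51.2, 1908 ± 301 and 2276 ± 1027. Slc16a1 was 11.6 ± 2.5, 99.6 ± 13.6 and 108 ± 62.9, and Shmt1 was 10.4 ± 1.57, 109.9 ± 13.3 and 119 ± 68.1. Cd200 was 73.7 ± 13.6, 10.6 ± 1.08 and 9.36 ± 10.1, and Il12a was 43.7 ± 6.13, 15.6 ± 1.17 and 9.52 ± 4.58. For Myc, Slc16a1, Shmt1 and Cd200 the knockout SD was far larger than that of Eμ-Myc, and knockout libraries lay on both sides of the Eμ-Myc mean.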

How the data were processed

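RNA libraries of splenic B lymphocytes were compared, 4 of Eμ-Myc; PRPS2 KO mice against 4 of WT mice, with 4 of Eμ-Myc mice for a direct comparison. The deposited files give coverage (signal) per gene for 24982 gene symbols, with 1 decimal and no normalization between libraries, and 91.6% of values above 0 are not whole. Per the submitters' processing notes the build was mm10 and DESeq and R 4.3.3 were used, with no role given. The aligner and the tool that made the coverage are not given in the sources used here, so read depth is unknown. No pair of libraries was identical.

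Libraries were scaled by trimmed means of log ratios (30% and 5% trimmed at each end) against the mean of all 12 libraries, a reference chosen after the data were seen. Genes that reached a scaled coverage of 1 in 4 or more of these 8 libraries were tested on log2(scaled coverage + 0.5) with limma 3.58.1 (trend, robust) in R 4.3.3, with Benjamini-Hochberg adjustment over all genes tested. In fits without 1 library, the minimum applied to the number of libraries in the smaller group, also chosen after the data were seen. The fits were also run on simulated data in which the libraries of a group varied independently. The knockout libraries here fell into pairs, so that run does not bear on how calls depend on single libraries. Replicates are called biological in the titles, and nothing else says how they were separated.

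Named genes are Prps2, Myc and Prps1, the 10 largest called increases and decreases with groups apart, the 10 largest of each among stable genes, and up to 3 called genes in each direction from each of 39 gene lists; some genes are not reported here. The members and lists were chosen with earlier results of these data known. Alternatives were other scalings, filters, pseudocounts, quality weights, a fit of all 12 libraries, a replicate block and leaving libraries out.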

Additional observations from a re-analysis of the deposited data

Results flagged for a closer look

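In groups of 4 libraries, 15 of 278 checks found the highest or lowest library set apart, with a gap to its neighbour that took up nearly all of the group's range, by Dixon's 95% criterion. Chance flags about 5% of such groups. WT library 1 was apart in 11 genes. It was high for the cell cycle genes Ccnb1 (16.95, others 7.35 to 8.256), Ccna2 (34.67), Rrm2 (57.64) and Mcm10 (12.25), and for Mxd3 (12.95), Mxi1 (250.9), Asns (15.72), Nt5dc2 (9.247) and Txnip (1480). It was low for Gclc (55.09) and Nolc1 (185.1).

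WT library 4 was high for Slc16a1 (15.29) and WT library 2 for Ndufa12 (102). Among marker sums, knockout library 1 was high for platelet markers (167.4, others 42.32 to 50.37) and knockout library 2 was low for erythroid markers (234, others 309.5 to 319.4). Values are scaled coverage.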

How the results depend on the processing

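With 1 library left out, calls against WT ranged from 687 to 6787, increases from 642 to 3761 and decreases from 37 to 3026. Without knockout libraries 1 and 2 there were 9009 calls (4579 higher, 4430 lower), and without libraries 3 and 4 there were 1376 (1114 higher, 262 lower). These exclusions were added after seeing the data. One fit of all 12 libraries gave 5934 (3455 higher, 2479 lower), and library quality weights gave 10490 (5185 higher, 5305 lower). Against Eμ-Myc, 1 gene was called except with quality weights (7469), without knockout libraries 1 and 2 (3569) and without libraries 3 and 4 (556).

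A replicate block gave 1946 calls (1525 higher, 421 lower). Deviations of same-numbered knockout and WT libraries correlated at 0.398, -0.422, 0.136 and -0.064, so the numbers were not taken to pair the samples. Trimmed means against 1 library, the original reference, gave 3515 calls (1970 higher, 1545 lower). With the filter for 4 libraries kept in every fit, the stable genes numbered 559 (534 higher, 25 lower). The cause of these differences was not tested. No named gene that an alternative tested changed direction; with a scaled coverage of at least 10 required in every library, 85 of the 131 named genes were tested. Of the 131 named calls, 40 were lost with a replicate block, 22 with no filter on low values, 7 with a pseudocount of 0.1 and 0 with a pseudocount of 2. With no filter, calls fell from 18 to 8 for complex I, from 8 to 5 for follicular and marginal zone genes and from 4 to 2 for interferon-stimulated genes. Other lists also lost calls, among them cytosolic ribosomal proteins (18 to 12), B-cell receptor signalling (3 to 1) and immediate-early genes (2 to 0). Coverage given without read counts limits what can be said of low genes.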
